A study of Mus musculus with 7 samples.

Results

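The histone deacetylase HDAC1 takes acetyl groups off histone tails and works in several corepressor complexes. Its binding was examined at 9 Polycomb group genes, Ezh1, Ezh2, Eed, Suz12, Rnf2, Bmi1, Cbx2, Cbx7 and Cbx8. Every HDAC1 peak that touched the body of one of these genes, or the 5 kb on either side of it, was taken from the deposited peak list with mm10 coordinates and GENCODE M21 gene models. This rule gave 21 of the 15347 listed peaks. The list comes from ChIP-seq, in which DNA fragments bound by a protein are recovered from fixed chromatin with an antibody and sequenced. The material was forelimb and hindlimb buds of E11.5 Swiss Webster mouse embryos with 40 to 44 somites, pooled from 3 litters a sample by the labels. The embryos were wild type by the study's design text and had no treatment in the labels, and by the labels the 4 HDAC1 ChIP samples and 3 input samples (chromatin without antibody) differ only in the antibody. A whole limb bud holds mesenchyme, ectoderm and other cells, so a peak does not say in which of them HDAC1 was bound. The 7 samples share 1 list of chromosome, start and end, in rank order. It holds no read depth, peak height or value per sample, so no value below has a replicate error and no difference below was tested. A site without a peak had no peak called at the depth of these libraries, which does not show that HDAC1 was absent there.

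Polycomb proteins keep developmental genes silent and act in a pair of complexes. PRC2 methylates lysine 27 of histone H3 to give H3K27me3. In it EZH1 or EZH2 is the methyltransferase, while EED and SUZ12 are subunits that the enzyme needs to be active. PRC1 ubiquitinates histone H2A. RNF2 (RING1B) is its ligase, BMI1 (PCGF4) is a partner of the ligase, and a CBX protein reads H3K27me3 through its chromodomain. In the limb bud, Polycomb silencing is best known at the Hox clusters. Ezh1, Ezh2, Eed, Suz12, Rnf2 and Bmi1 are called core genes below, although only EZH1, EZH2 and RNF2 are enzymes in the strict sense, and Cbx2, Cbx7 and Cbx8 are called Cbx genes.

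Of the 9 genes, 8 had at least 1 HDAC1 peak in the gene window (the gene with 5 kb on either side), and Ezh1 had none. Among all 21851 protein-coding genes the share with a peak by the same rule was 50.4%. Longer windows held peaks more often, with shares from 32.7% to 68.5% when coding genes were put in 4 equal groups from the shortest to the longest windows. Cbx8 was in the first group, Bmi1 and Cbx2 in the second, Ezh1, Eed, Suz12 and Rnf2 in the third, and Ezh2 and Cbx7 in the fourth. The same 8 genes had a promoter peak, defined as one that reached into the 2 kb before or the 1 kb after a start of transcription (TSS) of one of the gene's coding transcripts. The share of coding genes with a promoter peak was 44.1%. The core genes held 12 peaks, 10 of them at promoters, and the Cbx genes held 9 peaks, 4 of them at promoters. Of all 15347 listed peaks, 10757 were at the promoter of any coding gene, whereas the counts for the 9 genes took only a gene's own promoter. A Bmi1 peak counted outside its promoter lay at the promoter of Commd3. The Cbx8 window alone held 4 of the Cbx peaks outside promoters. A peak outside the gene's own promoter was found at 1 of 6 core genes (Bmi1) and at 3 of 3 Cbx genes, against 17.5% of coding genes. The only such peak of Cbx2 also lay in the window of Cbx8 and was counted for both genes. This count of 4 genes fell to 2 (Cbx7 and Cbx8) in the gene body alone and to 1 (Cbx8) among the first 7673 peaks of the list, and with promoters of 5 kb on both sides Cbx8 lost its peaks outside the promoter.

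**Figure D1:**
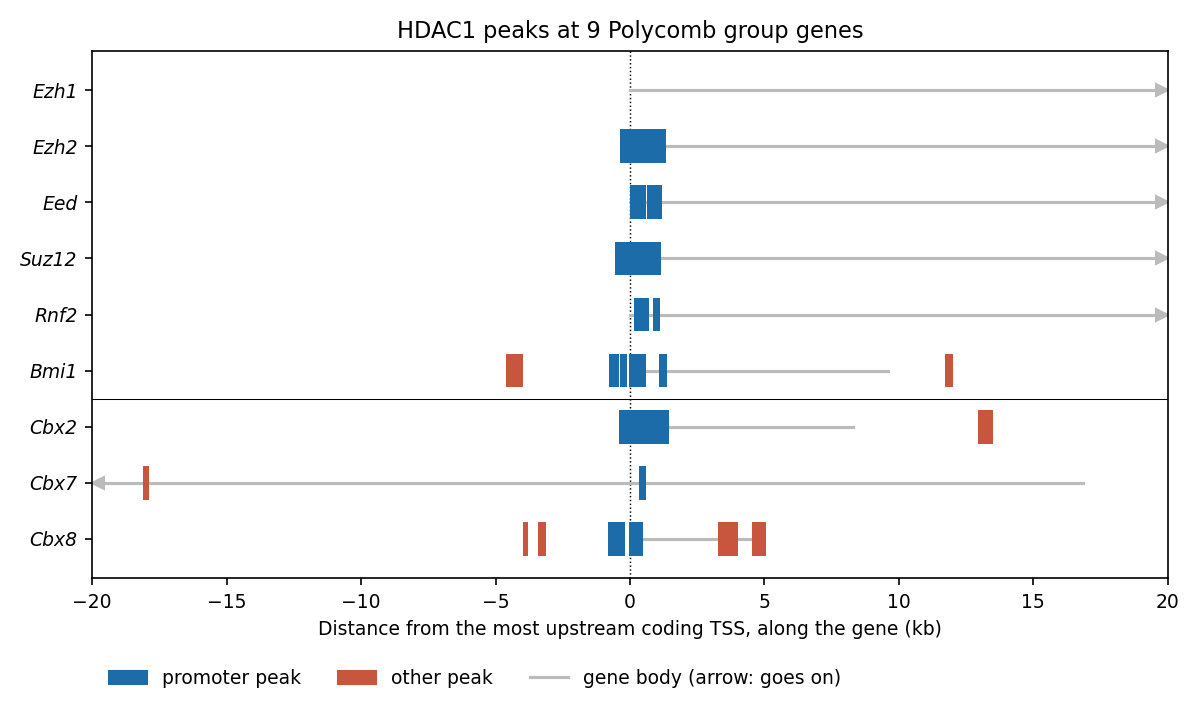
Position of HDAC1 peaks at the 9 genes, in kb from the most upstream coding TSS along the direction of transcription. Blue boxes are promoter peaks, red boxes are other peaks and grey lines are gene bodies, cut at 20 kb. All core genes except Ezh1 have a blue box at or just past the TSS, and the red boxes fall at Bmi1, Cbx2, Cbx7 and Cbx8.

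The sequences just upstream of the start show how 5 of the promoters read. They are from the RefSeq promoter table (GRCm38.p6, the assembly of mm10), written 5′ to 3′ on the strand of the gene and limited to bases in no annotated exon. Those of Ezh1 and Ezh2 contrast a pair of alternative methyltransferase genes, that of Suz12 lies in the other long core peak, and those of Bmi1 and Cbx8 belong to the genes with the most peaks. Capitals mark the motifs found among 9 that were searched on both strands.
Ezh1, chr11:101226464-101226713, minus strand: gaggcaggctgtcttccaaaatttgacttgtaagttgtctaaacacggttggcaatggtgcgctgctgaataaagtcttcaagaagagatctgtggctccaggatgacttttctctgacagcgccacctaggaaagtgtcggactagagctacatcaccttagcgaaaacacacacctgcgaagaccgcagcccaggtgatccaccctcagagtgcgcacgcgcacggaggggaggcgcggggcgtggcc
Ezh2, chr6:47595059-47595183, minus strand: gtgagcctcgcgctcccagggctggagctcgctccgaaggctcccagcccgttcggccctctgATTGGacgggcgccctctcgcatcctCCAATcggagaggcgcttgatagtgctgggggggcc
Suz12, chr11:79992856-79993105, plus strand: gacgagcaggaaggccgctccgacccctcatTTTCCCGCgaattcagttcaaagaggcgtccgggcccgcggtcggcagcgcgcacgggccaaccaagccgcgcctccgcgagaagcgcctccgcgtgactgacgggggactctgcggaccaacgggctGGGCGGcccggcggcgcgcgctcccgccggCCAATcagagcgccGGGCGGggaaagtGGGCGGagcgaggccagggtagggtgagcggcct
Bmi1, chr2:18676768-18677017, plus strand: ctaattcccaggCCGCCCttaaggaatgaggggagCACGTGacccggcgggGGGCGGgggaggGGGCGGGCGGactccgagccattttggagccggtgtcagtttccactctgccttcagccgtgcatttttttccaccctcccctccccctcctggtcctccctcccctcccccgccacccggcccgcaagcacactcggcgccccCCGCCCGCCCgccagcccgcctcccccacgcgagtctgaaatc
Cbx8, chr11:119040970-119041163, minus strand: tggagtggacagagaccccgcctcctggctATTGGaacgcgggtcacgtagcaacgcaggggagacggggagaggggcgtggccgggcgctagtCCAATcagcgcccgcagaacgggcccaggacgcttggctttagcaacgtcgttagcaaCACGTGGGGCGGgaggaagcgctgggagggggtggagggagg
No base of the Ezh1 stretch and all bases of the Ezh2 and Suz12 stretches lay in an HDAC1 peak. In the Bmi1 stretch 150 of 250 bases did, and in the Cbx8 stretch 44 of 194. The absence of peak bases was not particular to Ezh1, since the 300 bp windows of Rnf2 and Cbx7 held none either, although both genes had a peak past the start.

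In the 300 bp promoter windows of this table (250 bp before and 50 bp after the RefSeq start), Ezh1 had none of the 9 motifs, as had 27.1% of the windows of coding genes. The Sp/KLF-type GC box GGGCGG was in the windows of 5 of the 8 members read (Suz12, Rnf2, Bmi1, Cbx7 and Cbx8), and in 46.2% of 21263 windows of coding genes. Bmi1 had 6 copies. The CCAAT box (CCAAT) was in those of Ezh2, Eed, Suz12, Cbx7 and Cbx8, against 38.2% of all windows, and Ezh2 had 3 copies. The E-box CACGTG was in those of Bmi1 and Cbx8 (7.84% of all windows). The E2F-type word TTTGGCGC was in that of Ezh2, in the part past the start that is not printed (0.635% of all windows), and TTTCCCGC, also E2F-type, in that of Suz12 (1.41%). The ETS-type word CCGGAAG (11.6%), the NRF1-type GCGCATGCG (2.35%), the YY1-type AAGATGGC (3.05%) and the GLI-type GACCACCCA (0.179%) were in no member window. A match of letters is not a bound site.
CpG dinucleotides did not sort the genes with a peak from the gene without one. The window of Ezh1 held 23 CpG, as many as that of Bmi1, while the other members ranged from 17 at Eed to 41 at Suz12. The median of coding genes was 13. Cbx7, whose promoter peak stood late in the list, had 33. The promoter window of Cbx2 was not analysed here.

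The methyltransferase genes of PRC2 differed from each other. Ezh2 (chromosome 6, 47530139 to 47595341, minus strand) had 1 peak of 1700 bp, from 47593700 to 47595399. It stood at position 127 of the list, covered the main TSS at 47595030 and lay over intron for 1505 bp. Only 127 of 21851 coding genes, 0.581%, had a promoter peak at this position or before it. A second coding TSS of Ezh2, inside the gene at 47577660, had no peak.
Ezh1 (chromosome 11, 101191115 to 101226463, minus strand), the paralogue with weaker methyltransferase activity, had no peak at any of its 3 coding TSS, in its body or in the 5 kb beyond. The nearest peaks were 17065 bp past its 3′ end, at the promoter of Cntnap1 (200 bp, position 13061), and 19686 bp before its 5′ end, at the promoter of Ramp2 (350 bp, position 9446). With 10 kb added on either side Ezh1 still had none.

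The other PRC2 subunits had peaks at their promoters only. Suz12 (chromosome 11, 79993106 to 80034123, plus strand) had 1 peak of 1700 bp, from 79992550 to 79994249, at position 876. It covered the TSS, 214 bp of 5′ UTR and 280 bp of coding sequence. Peaks of at least 1700 bp led the promoter of 7.68% of the coding genes that had a promoter peak.
Eed (chromosome 7, 89954654 to 89980983, minus strand) had a pair of peaks 50 bp apart. The first, from 89980400 to 89980999, was 600 bp long, covered the TSS and stood at position 6250. The second, from 89979800 to 89980349, lay wholly in an intron and stood at position 10826. The first also covered an annotated start of the noncoding RNA E230029C05Rik, and ChIP-seq cannot assign such a peak to one of the genes it covers.

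Among the PRC1 core genes, Rnf2 had 2 peaks and Bmi1 had 6. Rnf2 (chromosome 1, 151458004 to 151500955, minus strand) had a peak of 550 bp from 151500250 to 151500799, at position 863. It started 12 bp past the nearest of the 3 coding TSS. Among the 500 peaks before and the 500 after it in the list the median length was 1250 bp, and only 3.90% of this stretch were shorter, so the Rnf2 peak was short for its rank. The same held for the second Rnf2 peak, 250 bp from 151499850 to 151500099 at position 5428, where 0.699% of the peaks of like rank were shorter. The Rnf2 peaks lay 150 bp apart and spanned 950 bp when joined, so their shortness depends on how the caller split them.
Bmi1 (chromosome 2, 18677018 to 18686629, plus strand) had 6 peaks, as did Cbx8. Such a number was reached by 159 coding genes (0.728%). With peaks no more than 1000 bp apart joined, Bmi1 and Cbx8 had 3 peaks each, and in the gene body alone 2 and 3. The share of coding genes was not recomputed for these settings. The Bmi1 peak over the TSS, from 18677000 to 18677599, was 600 bp long and stood at position 2404. The peaks of like rank had a median length of 950 bp, and 17.1% of them were shorter than the Bmi1 peak. Upstream of this Bmi1 peak lay peaks of 350 bp and 250 bp, at positions 12836 and 12708, separated by gaps of 50 bp and 100 bp. A peak of 300 bp in the gene (18678100 to 18678399, position 8692) counted as promoter only through a second coding TSS at 18680372. Of the peaks outside the promoter, one of 650 bp (18672400 to 18673049, position 11804) was at the promoter of the neighbouring gene Commd3, and one of 300 bp (18688750 to 18689049, position 10725) was past the 3′ end of Bmi1.

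The Cbx genes spanned the widest range. Cbx2 (chromosome 11, 119022962 to 119031270, plus strand) had the longest peak of all 9 genes, 1850 bp from 119022550 to 119024399, at position 169. It covered the TSS, and 6.03% of coding genes with a promoter peak had a leading one of this length or more. Cbx2 and Cbx8 are neighbours, and the other peak in the Cbx2 window, 550 bp from 119035900 to 119036449 at position 13345, was also in that of Cbx8, where it covered the end of the gene.
Cbx8 (chromosome 11, 119036305 to 119040969, minus strand) had peaks at both ends. At the start, a peak of 500 bp over the TSS (119040500 to 119040999, position 6620) was followed 150 bp upstream by one of 650 bp (119041150 to 119041799, position 11372). At the 3′ end, a peak of 750 bp (119036950 to 119037699) lay wholly in the 3′ UTR and stood at position 6082, ahead of the promoter peaks of this gene. A pair of short peaks of 300 bp and 200 bp lay more than 3 kb upstream of the TSS, at positions 8806 and 13014.
Cbx7 (chromosome 15, 79915807 to 79971119, minus strand) had the shortest leading promoter peak of the 8 genes with one. One of 250 bp (79932050 to 79932299, position 9137) lay in an intron with its centre 365 bp past the nearest of 3 coding TSS, and left those TSS uncovered. The other, of 200 bp (79950550 to 79950749), stood at position 15334, among the last of the list. It was inside the annotated gene body but upstream of the coding part, with its centre at -17998 bp from the nearest coding TSS.

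**Figure D2:**
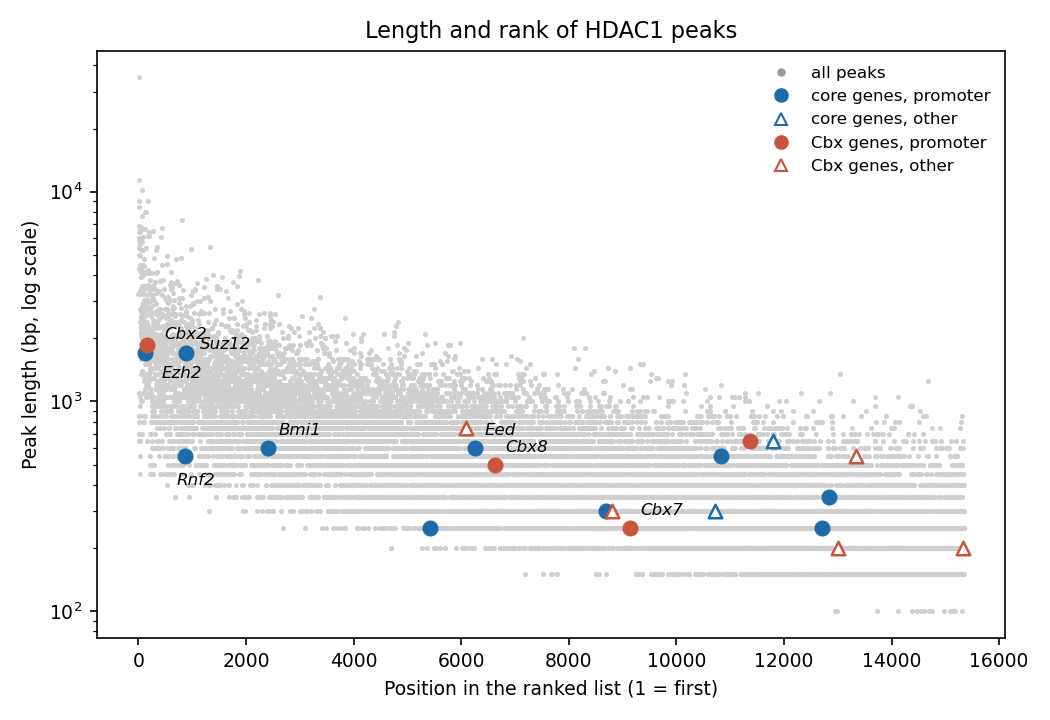
Length of each HDAC1 peak in bp on a log scale against its position in the ranked list. Grey points are all 15347 peaks, blue ones belong to core genes and red ones to Cbx genes, with filled circles for promoter peaks and open triangles for other peaks, and names mark the leading promoter peak of a gene. Ezh2, Cbx2 and Suz12 lie at the upper left, and no open triangle comes before position 6082.

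Core and Cbx genes were compared by the leading promoter peak, the promoter peak that came first in the list. Among the 5 core genes with one, its position was 127 at Ezh2, 863 at Rnf2, 876 at Suz12, 2404 at Bmi1 and 6250 at Eed, with a median of 876. At the Cbx genes it was 169 at Cbx2, 6620 at Cbx8 and 9137 at Cbx7, with a median of 6620. Cbx2 lay inside the range of the core genes and the other Cbx genes came after all of it. The median of the 9630 coding genes with a promoter peak was 5174.5. With the 5′ end of the gene as its only TSS Cbx7 had no promoter peak, and the median of Cbx2 and Cbx8 was 3394.5. The 5174.5 of all coding genes was not recomputed with this rule, so it cannot be set beside 3394.5. The lengths of these peaks had a median of 600 bp at core genes (range 550 to 1700 bp) and 500 bp at Cbx genes (range 250 to 1850 bp), beside 650 bp at all coding genes, and the ranges overlapped. With peaks no more than 1000 bp apart joined, the medians became 1700 bp at core and 1300 bp at Cbx genes. The split peaks of Rnf2, Eed, Bmi1 and Cbx8 then reached 950, 1200, 2150 and 1300 bp. The 650 bp of all coding genes was not recomputed with joined peaks, so it cannot be set beside these medians.
Peaks covered 2.71% of the gene window at the median core gene and 12.1% at the median Cbx gene. The values ran from 0% at Ezh1 to 12.5% at Bmi1 for core genes and from 0.689% at Cbx7 to 20.1% at Cbx8 for Cbx genes, so that they overlapped. The genes with the largest covered shares were the 3 with the shortest windows, Cbx8, Cbx2 and Bmi1.

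The ratio of observed to expected CpG separated the leading peaks of these core and Cbx genes, as called, without overlap. This ratio, which is 1 when CpG is as frequent as the content of C and G predicts, was 0.871 at Suz12, 0.927 at Rnf2, 0.937 at Ezh2, 1.03 at Eed and 1.12 at Bmi1. It was 0.626 at Cbx7, 0.670 at Cbx8 and 0.707 at Cbx2. The median over coding genes with a promoter peak was 0.835, and 61.3% of them lay below Suz12 and 19.4% below Cbx2. Cbx6, a Polycomb Cbx gene outside the 9, had 0.471, also below all 5 core genes. With 5 and 3 genes, chosen by name, this is a description. The GC content of the same peaks did not separate them, with 62.5% to 77.1% at core genes and 48.0% to 67.2% at Cbx genes. Over all promoter peaks the CpG ratios overlapped, since the Bmi1 peak from 18678100 to 18678399 had 0.446. The CpG counts of the 300 bp promoter windows also overlapped, with 17 to 41 at core genes, 24 at Cbx8 and 33 at Cbx7. Of the Polycomb genes outside the 9, only Cbx genes were read for this ratio. It was not recomputed with peaks no more than 1000 bp apart joined, which changes the leading peaks of Rnf2, Eed, Bmi1 and Cbx8.

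**Figure D3:**
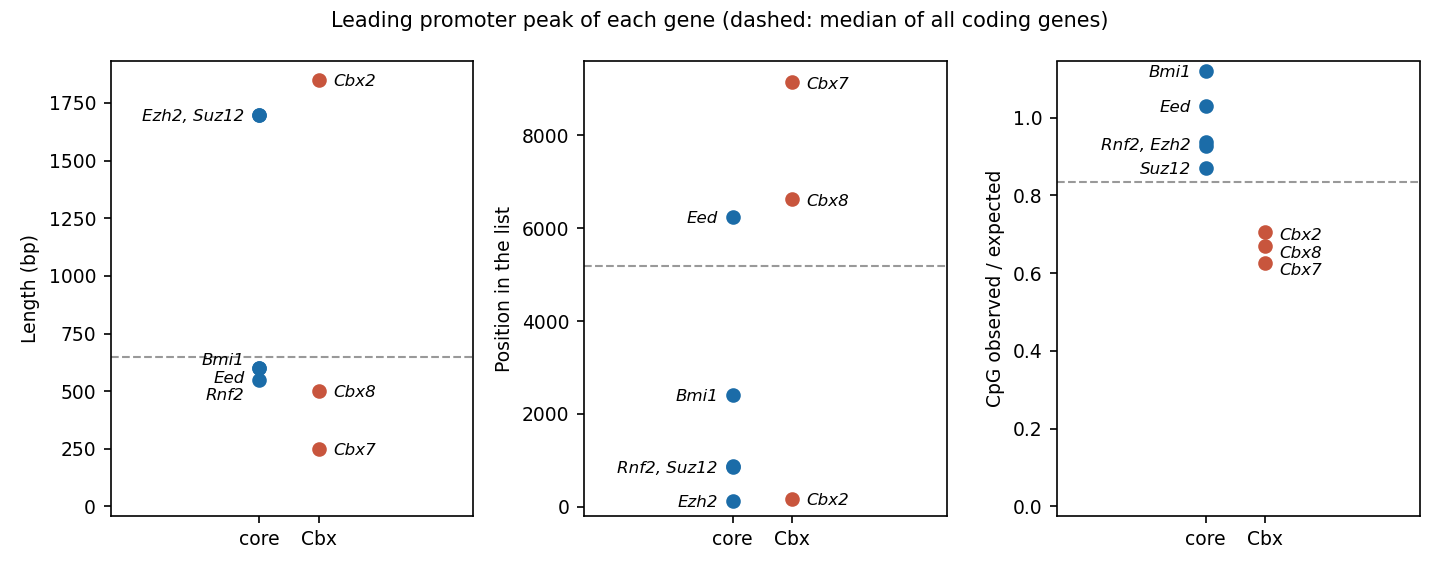
Length in bp, position in the list and CpG observed/expected ratio of the leading promoter peak, 1 point per gene, for 5 core genes (blue) and 3 Cbx genes (red). The dashed line is the median of 9630 coding genes, and only the CpG ratio leaves the groups apart, with Suz12 at 0.871 the lowest core gene and Cbx2 at 0.707 the highest Cbx gene.

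In all 8 genes the centre of the leading promoter peak lay downstream of the nearest coding TSS, by 219 bp at Cbx8 to 512 bp at Cbx2. Among all coding genes with a promoter peak 72.4% had it downstream, and 26.9% fell between 219 and 512 bp. The median over all of them, with upstream centres counted as negative, was 138 bp. The range of 219 to 512 bp was taken from the 8 genes themselves, so all 8 lie in it by construction. The leading peak covered a coding TSS in 6 of the 8 genes, and in 70.5% of coding genes with one. The exceptions were Rnf2 and Cbx7, where the peak began past the start.

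**Figure D4:**
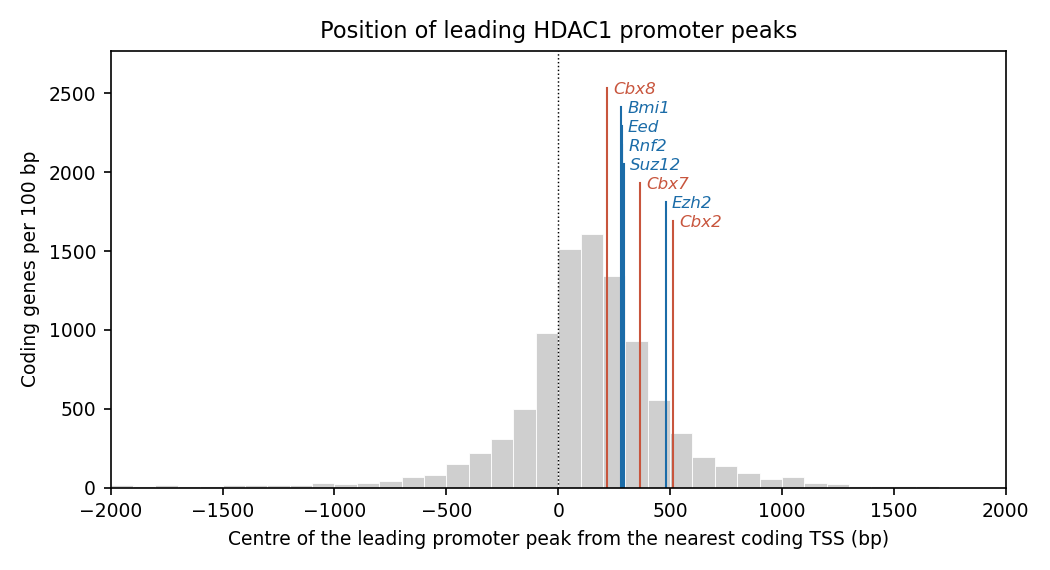
Distance in bp from the nearest coding TSS to the centre of the leading promoter peak, with positive values downstream. Grey bars count coding genes per 100 bp, without those beyond 2000 bp, and lines mark the core (blue) and Cbx genes (red), all between 219 and 512 bp.

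The wider Polycomb machinery was read from a list of 36 other genes. Of these 33 had a peak in the window and 32 a promoter peak, and 11 had a peak outside the promoter, which is 91.7%, 88.9% and 30.6% beside 50.4%, 44.1% and 17.5% of coding genes. The leading promoter peaks had a median length of 1175 bp and a median position of 3434.5, against 600 bp and 1640 at the 8 members with one and 650 bp and 5174.5 at all coding genes. Scml2, Phf19, a PRC2 accessory gene, and Bap1, which encodes the H2A deubiquitinase opposed to PRC1, had no peak, as Ezh1 did not. The longest peaks were at Kdm6b (3700 bp), a gene for an H3K27 demethylase, at Bcor (3050 bp) of a variant PRC1, at Auts2 (2650 bp), at Yy1 (2600 bp) and at Jarid2 (2450 bp), a PRC2 cofactor. The earliest were at Asxl1 (position 204), Pcgf2 (330), Pcgf5 (399), Auts2 (408) and Yy1 (437), all later than Ezh2 and Cbx2. Pcgf2 is the paralogue of Bmi1, and its leading peak of 1200 bp came before that of Bmi1. Ring1, the paralogue of Rnf2, had its leading peak of 1250 bp at position 2087, after that of Rnf2.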

How the data were processed

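Per the labels and the paper's methods, 4 HDAC1 ChIP and 3 input libraries of E11.5 limb buds were sequenced. The submitters' processing notes name Bowtie2 2.2.5 and mm10. The authors called peaks with CisGenome and kept those with a false discovery rate below 0.05, as 1 deposited list for all samples. Its columns are coordinates, so no depth, count or signal per sample could be used. Peak edges fall on steps of 50 bp and were read as 1-based with both ends included, which may be off by 1 bp.

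Peaks were intersected (at least 1 bp) with GENCODE M21 basic gene models, and bases were read from GRCm38.p6. Promoters took in 2 kb before and 1 kb after each TSS of a coding transcript. Shares over 21851 protein-coding genes on the nuclear chromosomes served as background. The overlap step was tested on simulated data and gave the right answer for 2000 of 2000 regions. The genes, lists and motifs were chosen with earlier results of these data known. Named were the 9 genes, genes sharing a peak with them, Cbx6, and of 36 other Polycomb genes the 5 with the longest and the 5 with the earliest peak and those without one. Ring1 and the genes beside Ezh1 were named after their values were seen. An item that the rule also covers is not reported here. Python 3.11.15, numpy 2.4.6 and matplotlib 3.10.9 were used.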

Additional observations from a re-analysis of the deposited data

How the results depend on the processing

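The counts, lengths, positions and covered shares were recomputed under 37 alternatives, and 32 of them left a count within a factor of 1.5 or a median within 1 SD over genes. For the 3 Cbx genes this limit was wide, with an SD of 861 bp for length and 4630 for position. Medians that went from 500 to 1300 bp, or from position 6620 to 3394.5, were therefore among the 32. The fall from 21 to 14 peaks in the gene body alone lay at the limit of 1.5. With only the first 7673 peaks of the ranked list the peaks at the 9 genes fell from 21 to 9, and the genes with a peak outside their promoter from 4 to 1 (Cbx8), by construction, since the list is shorter. Cbx7 then had no peak. With the gene body alone, chosen after seeing the data, the genes with a peak outside their promoter were 2, since Bmi1 and Cbx2 had such peaks in the flanks only. Joining peaks no more than 1000 bp apart left 13 peaks and raised the median length of the leading promoter peak of core genes from 600 to 1700 bp. With the 5′ end of the gene as its only TSS Cbx7 lost its promoter peak, which left 7 genes with one, and the median position at Cbx genes became 3394.5, an alternative chosen after seeing the data. No paired analysis was possible because the 7 samples share 1 list that carries no replicate number, and no replicate could be left out for the same reason. Weak binding can fall under the peak threshold at any depth.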

Other observations

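Cbx6, which lies on chromosome 15 as Cbx7 does, had 2 peaks of together 700 bp at positions 14063 and 15066 of the list. Both were at its promoter, so Cbx6 had no peak outside the promoter, unlike Cbx2, Cbx7 and Cbx8. Its leading promoter peak was 450 bp long, against 250 bp at Cbx7.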
